A study of Mus musculus with 12 samples.

Results

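The cornified layer of mouse skin is built with the help of 10 genes described here, 9 of enzymes and 1 of a lipid transporter: Alox12b, Aloxe3, Alox12e, Elovl4, Cers3, Abca12, Pnpla1, Tgm1, Tgm3 and Casp14. They were taken by name from a deposited table of 23359 genes, and all 10 were among the 13761 genes that reached 1 FPKM in at least 3 libraries and were tested. FPKM counts sequenced fragments per length of transcript and per depth of library, so that levels of different genes can be set side by side per length. The libraries were made from messenger RNA of macrodissected skin of C3H/HeJ mice, and the study concerns how fibroblast metabolism bears on the skin matrix. There were 4 groups of 3 libraries each. Treated skin at 20 weeks came from the fibrosis model after transplantation of CD36highCD90+ fibroblasts, which are sorted for a fatty acid uptake receptor and a fibroblast surface protein. The fibrotic groups, sampled at 20 weeks and at 6 weeks, came from the model without those cells. Normal skin of the same strain has no time point in the labels. How the fibrosis was induced, where the cells came from, and whether the 3 libraries of a group are separate animals is not in the labels. The p-values therefore speak of spread among samples, which may be technical. Treated skin is compared with untransplanted fibrotic skin, since no group is labelled as having received other cells or vehicle.

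The outermost layer of the epidermis is a wall of dead, flattened keratinocytes set in lipid. Living keratinocytes of the granular layer elongate fatty acids, join them to sphingoid bases as ceramides, esterify the ceramides with linoleate and load them into lamellar granules, which are secreted between the cells. Lipoxygenases then oxidise the linoleate so that the lipid can be bound to protein. At the same time transglutaminases weld proteins such as involucrin and loricrin into a cornified envelope, and proteases break filaggrin down into the free amino acids that hold water. Loss of function of several of these genes causes ichthyosis in people.

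The positions given here are those of the mm10 assembly, in the GENCODE annotation. The lipoxygenase genes lie together on chromosome 11, and Aloxe3 (69125896 to 69149115, plus strand) ends 7873 bases before Alox12b (69156989 to 69169792, plus strand). Alox12e lies 1145817 bases further along, at 70315610 to 70322628 on the minus strand. Tgm3 is on chromosome 2 (130012349 to 130050399, plus strand) and Casp14 on chromosome 10 (78711991 to 78718294, minus strand). Cers3 is on chromosome 7, Abca12 on chromosome 1, Pnpla1 on chromosome 17, Elovl4 on chromosome 9 and Tgm1 on chromosome 14. Antisense transcripts are annotated across Pnpla1 (Pnpla1os) and Tgm1 (Gm49067). The library kit keeps the strand, but whether the authors' counting used it is not given in the sources used here, so the values of these genes may include antisense reads.

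The 250 bases upstream of the start in RefSeq are shown for a pair of lipoxygenase genes of chromosome 11 whose levels moved in opposite directions at 6 weeks, Alox12b and Alox12e, and for the pair of members that rose most, Tgm3 and Casp14. They come from RefSeq (GRCm38.p6) and run 5′ to 3′ along each gene's own strand. The windows are chr11:69156822-69157071 on the plus strand, chr11:70322531-70322780 on the minus strand, chr2:130012090-130012339 on the plus strand and chr10:78718294-78718543 on the minus strand. RefSeq places the starts of Alox12b and Alox12e inside the GENCODE genes given above, so these windows take in the first bases of both. Capitals mark a GC box (GGGCGGG or its reverse complement CCCGCCC).
Alox12b: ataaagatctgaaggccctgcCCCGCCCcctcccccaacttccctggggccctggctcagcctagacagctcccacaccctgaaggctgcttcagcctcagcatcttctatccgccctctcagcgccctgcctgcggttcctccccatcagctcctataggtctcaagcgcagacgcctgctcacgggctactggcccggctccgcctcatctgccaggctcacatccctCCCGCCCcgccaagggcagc
Alox12e: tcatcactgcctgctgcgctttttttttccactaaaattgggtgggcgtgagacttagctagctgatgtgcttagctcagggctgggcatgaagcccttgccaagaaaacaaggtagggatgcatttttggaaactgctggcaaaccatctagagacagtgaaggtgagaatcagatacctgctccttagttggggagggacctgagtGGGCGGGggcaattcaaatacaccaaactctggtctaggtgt
Tgm3: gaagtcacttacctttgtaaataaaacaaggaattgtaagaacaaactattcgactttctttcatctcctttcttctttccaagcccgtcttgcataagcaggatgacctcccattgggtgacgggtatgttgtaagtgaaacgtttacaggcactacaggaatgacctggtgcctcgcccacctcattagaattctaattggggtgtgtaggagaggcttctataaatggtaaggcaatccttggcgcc
Casp14: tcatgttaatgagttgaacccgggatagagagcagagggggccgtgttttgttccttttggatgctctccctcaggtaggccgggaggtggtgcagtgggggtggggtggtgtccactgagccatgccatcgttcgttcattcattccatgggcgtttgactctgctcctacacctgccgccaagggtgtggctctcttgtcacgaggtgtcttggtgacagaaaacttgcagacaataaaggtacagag
The Alox12b window was the richest of these in G and C, with 66% of its bases, against 54.4% for Casp14, 49.6% for Alox12e and 44% for Tgm3. A RefSeq window was at hand for 9 of the 10 members. A GC box, searched on both strands, was in a window of 4 of the 9 (Alox12b, Alox12e, Elovl4 and Tgm1) and in 23.4% of all 32851 windows of this length. Members are counted here by gene and the background by window, and Tgm1 also has a window without a GC box. The letters of the AP-1 element, TGANTCA, were in 0 of the 9 and in 6.75% of all windows. The grainyhead elements AACCGGTT and AACCTGTT were in 0 of the 9, with 0.116% and 0.837% of all windows, and so was the DR1 element of nuclear receptors, with 0.0335%. A window without these letters says nothing of binding elsewhere.

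Between 12658 and 13364 genes reached 1 FPKM in a library, and the median of the tested genes lay between 9.63 and 10.3 FPKM. The number of reads behind a value cannot be told from FPKM. Treated libraries stood further apart than the others, with a median SD of a gene of 0.239 on the log2(FPKM + 1) scale in treated skin, against 0.148 in fibrotic skin at 20 weeks, 0.142 in fibrotic skin at 6 weeks and 0.148 in normal skin. All 19 keratinocyte markers that were listed (Krt5, Krt14, Dsp and others) were present in every library, and their summed level was 8127 to 13768 FPKM in treated skin, 12604 to 15623 FPKM in fibrotic skin at 20 weeks, 12915 to 14980 FPKM in fibrotic skin at 6 weeks and 8292 to 8749 FPKM in normal skin. By the limma fit described below, 5 of the 19 rose and 4 fell at 6 weeks against normal skin (median log2 fold change 0.04). At 20 weeks 6 rose and 2 fell (0.39), and in treated against normal skin 2 rose and 3 fell (-0.27). In treated against fibrotic skin 0 rose and 5 fell (-0.39). Of all tested genes 17.6% rose and 21.7% fell, 15.3% and 18.2%, 7.57% and 13.2%, and 4.45% and 10.9%, in the same order. In whole skin, fewer cells of a type and less RNA per cell cannot be told apart.

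Fibrotic skin at both times carried more transcript of most of these genes than normal skin, and treated skin at 20 weeks carried less of them than fibrotic skin at the same time, by calls that rest on the spread pooled over the 4 groups. Against normal skin, the fibrotic groups differed most in Casp14 and Tgm3. Alox12e went the other way at 6 weeks, and Elovl4 was called in no comparison.

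**Figure D1:**
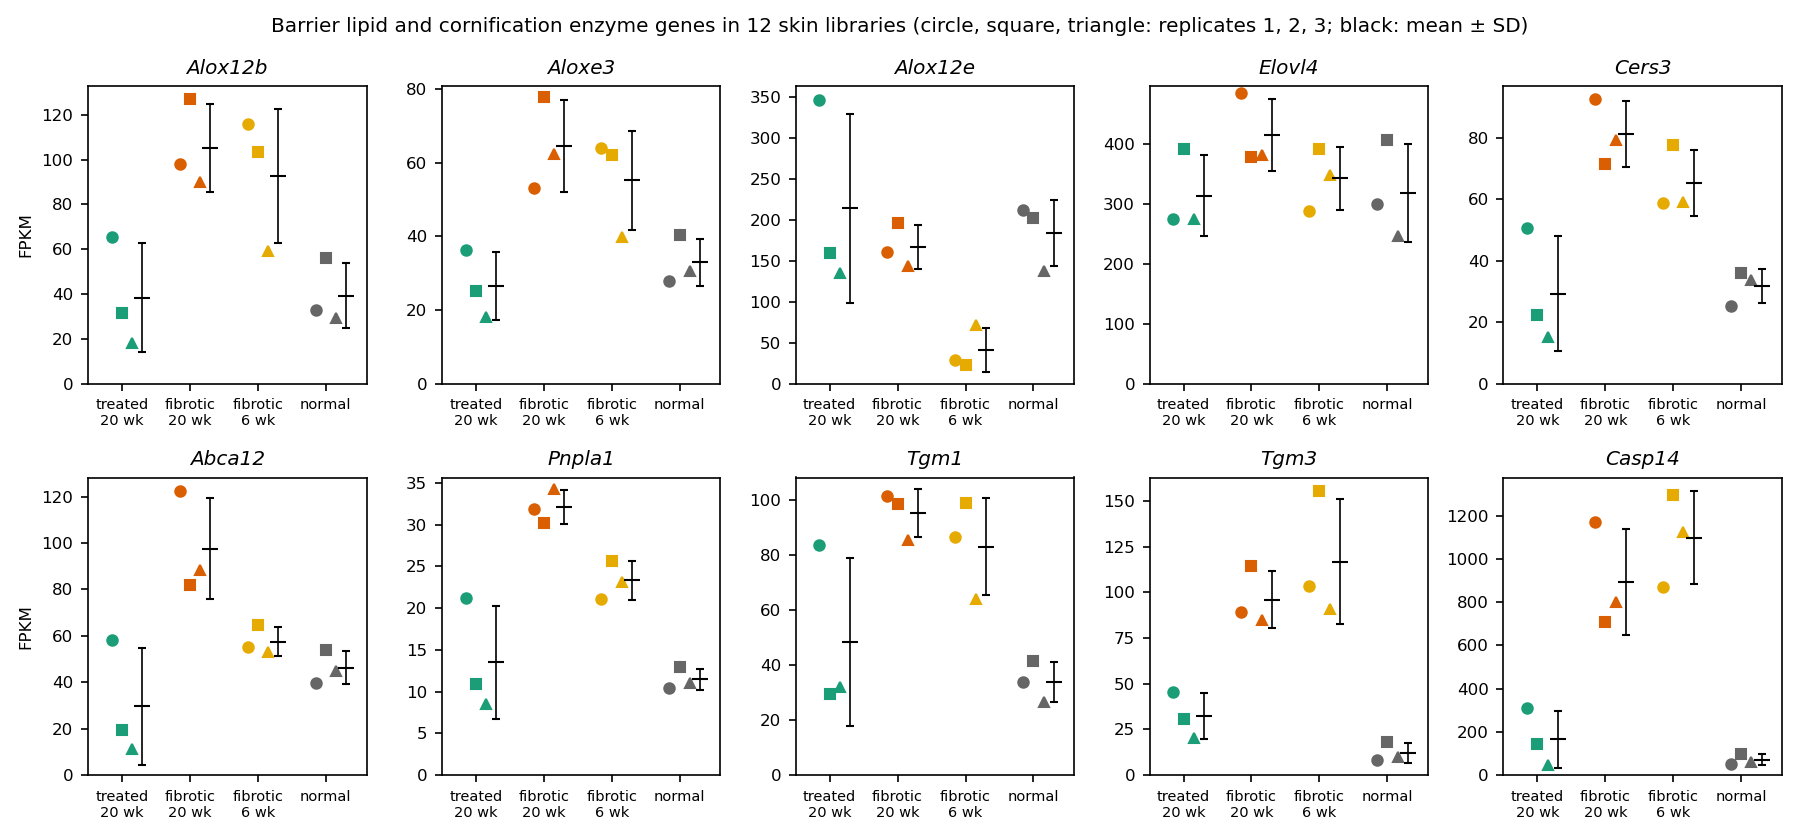
FPKM of the 10 members in each library (vertical axes start at 0, with a scale for each gene), by group from left to right: treated 20 weeks, fibrotic 20 weeks, fibrotic 6 weeks and normal. Symbols mark replicates 1 to 3 and black bars the mean ± SD (n = 3); Casp14 reached 709 to 1171 FPKM in fibrotic skin at 20 weeks and 53.2 to 99.0 FPKM in normal skin, and Alox12e was lowest in the 3 libraries of 6 weeks.

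The order of the members by level changed between groups. In treated skin the highest were Elovl4, Alox12e and Casp14, with means of 313, 214 and 166 FPKM. In fibrotic skin Casp14 led at 20 weeks (894 FPKM) and at 6 weeks (1097 FPKM), ahead of Elovl4 with 414 and 342 FPKM. In normal skin Elovl4 led with 317 FPKM, ahead of Alox12e with 184 FPKM and Casp14 with 70.4 FPKM. Among all tested genes ordered by mean level, Casp14 was at place 414 in treated skin, 112 in fibrotic skin at 20 weeks, 91 at 6 weeks and 1002 in normal skin. Pnpla1 was the lowest member in all 4 groups, with 13.5, 32.1, 23.3 and 11.5 FPKM in treated, fibrotic 20-week, fibrotic 6-week and normal skin. In normal skin Abca12 (46.3 ± 7.13 FPKM), Alox12b (39.2 ± 14.5 FPKM), Tgm1 (33.9 ± 7.33 FPKM), Aloxe3 (32.9 ± 6.50 FPKM) and Cers3 (31.7 ± 5.57 FPKM) were neighbours in the order, and each was within 1 SD of the next (n = 3).

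Among the lipoxygenases, Alox12b encodes the 12R-lipoxygenase that takes the first step in oxidising the linoleate of acylceramides. It stood at 65.2, 31.6 and 18.0 FPKM in treated skin, 98.0, 127 and 89.9 FPKM in fibrotic skin at 20 weeks, 116, 103 and 59.1 FPKM at 6 weeks, and 32.7, 55.9 and 29.1 FPKM in normal skin. Both fibrotic groups lay above all normal libraries, and the treated libraries ran from below to above normal skin and were all below the fibrotic libraries of 20 weeks. The log2 fold change was 1.22 ± 0.43 at 6 weeks (SE, adjusted p = 0.0451) and 1.44 ± 0.43 at 20 weeks (SE, adjusted p = 0.0275) against normal skin, by limma with adjustment over all tested genes.

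Aloxe3 encodes the epidermal lipoxygenase that carries the product of Alox12b onward. Its level was 36.4, 25.2 and 18.0 FPKM in treated skin, 53.0, 77.8 and 62.5 FPKM in fibrotic skin at 20 weeks, 64.0, 62.0 and 39.7 FPKM at 6 weeks, and 27.9, 40.2 and 30.6 FPKM in normal skin. The groups of 20 weeks and normal skin did not overlap (fibrotic above normal, log2 fold change 0.95 ± 0.27, SE, adjusted p = 0.0228 by limma). At 6 weeks 1 library fell just below the highest normal one, and the log2 fold change of 0.72 ± 0.27 (SE) missed the threshold at an adjusted p of 0.0567. It passed without that library, replicate 3 of 6 weeks (log2 fold change 0.93, adjusted p = 0.0292), without treated replicate 1 or 3 (adjusted p = 0.0272 and 0.0338), in a fit of the 6 libraries compared (0.0391), with median-of-ratios scaling (0.047), with the replicate number as a block (0.0443) and with array weights (0.0115). The array weights here and below rest heavily on treated replicate 2, with a weight of 12.8, against 0.162 and 0.371 for treated replicates 1 and 3.

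Alox12e encodes the epidermal type of 12-lipoxygenase of the mouse and followed another course. It had 346, 159 and 135 FPKM in treated skin, 161, 196 and 144 FPKM in fibrotic skin at 20 weeks, 28.6, 22.2 and 71.9 FPKM at 6 weeks, and 211, 202 and 137 FPKM in normal skin. All 3 libraries of 6 weeks lay below the other 9 libraries, which overlapped one another. At 6 weeks it fell by 2.30 ± 0.44 on the log2 scale against normal skin (SE, adjusted p = 0.00332 by limma), to a fold of 0.203, and the call was kept with any 1 library left out. At 20 weeks the difference from normal skin was -0.13, with a 95% interval of -1.10 to 0.85.

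The ratio of Alox12e to Alox12b was taken within each library. It was 5.31, 5.05 and 7.51 in treated skin, 1.64, 1.54 and 1.60 in fibrotic skin at 20 weeks, 0.247, 0.216 and 1.22 in that of 6 weeks, and 6.47, 3.62 and 4.72 in normal skin. Fibrotic skin at either time lay below all treated and all normal libraries, and treated and normal skin overlapped. The design's single test of the ratio pooled the 9 libraries of the model, treated ones included, against normal skin. It used the difference of log2(FPKM + 1) in place of the plain ratio. The mean difference was -1.60, with an exact 2-sided permutation p of 0.155.

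**Figure D2:**
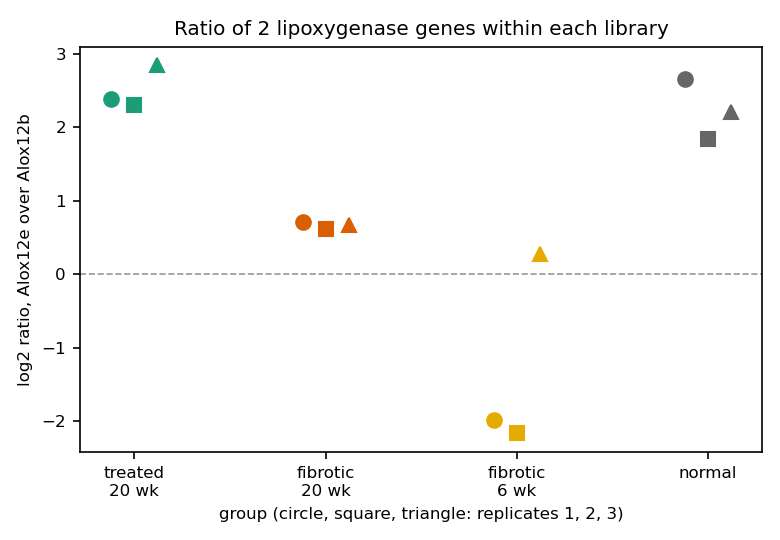
Log2 ratio of Alox12e to Alox12b in each library, taken as the difference of their log2(FPKM + 1) values, by group (symbols are replicates 1 to 3, the dashed line marks equal levels). Treated libraries lie at 2.30 to 2.84, fibrotic libraries of 20 weeks at 0.62 to 0.71, those of 6 weeks at -2.16 to 0.28, and normal libraries at 1.84 to 2.66.

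Sebaceous gland markers (15 listed genes, of which 9 of 13 tested fell and 0 rose at 6 weeks, where 21.7% and 17.6% of all tested genes did) were read beside Alox12e. Their mean log2 level relative to normal skin was -1.05, 0.48 and 0.31 in the 3 treated libraries, -1.71 to -1.07 in fibrotic skin at 20 weeks and -1.70 to -1.22 at 6 weeks. Their summed level was 873 to 1059 FPKM in treated skin, 495 to 1032 FPKM at 20 weeks, 278 to 377 FPKM at 6 weeks and 636 to 1205 FPKM in normal skin, and Gal and Mogat2 were listed at 0 in some library. At 20 weeks, Alox12e of fibrotic skin overlapped normal skin. There the mean log2 level of these markers was below normal skin, while their summed level overlapped it. Treated replicate 1, with the highest Alox12e value, had a mean log2 level of -1.05 and a summed level of 873 FPKM. Their part in the fall of Alox12e at 6 weeks was not tested.

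Of the ceramide genes, Elovl4 encodes the elongase that makes the very long fatty acids of acylceramides. It had 275, 392 and 274 FPKM in treated skin, 484, 378 and 381 FPKM in fibrotic skin at 20 weeks, 287, 391 and 348 FPKM at 6 weeks, and 299.8, 407 and 245 FPKM in normal skin. The groups overlapped in all comparisons, and no comparison called it. The 95% interval of its log2 fold change was -0.07 to 0.88 in fibrotic skin at 20 weeks against normal skin and -0.35 to 0.61 at 6 weeks.

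Cers3 encodes the ceramide synthase that uses the fatty acids made by Elovl4. It had 50.6, 22.2 and 15.04 FPKM in treated skin, 92.7, 71.4 and 79.3 FPKM in fibrotic skin at 20 weeks, 58.8, 77.6 and 59.0 FPKM at 6 weeks, and 25.4, 35.9 and 33.8 FPKM in normal skin. Both fibrotic groups lay above normal skin, and 2 of the 3 treated libraries lay below all normal ones. It rose by 1.02 ± 0.35 at 6 weeks (SE, adjusted p = 0.0398, and 0.0532 with the replicate number as a block) and by 1.34 ± 0.35 at 20 weeks (SE, adjusted p = 0.0158) on the log2 scale by limma.

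Pnpla1 encodes the transacylase that puts linoleate on the ceramide. It had 21.2, 10.9 and 8.46 FPKM in treated skin, 31.8, 30.2 and 34.3 FPKM in fibrotic skin at 20 weeks, 21.1, 25.7 and 23.2 FPKM at 6 weeks, and 10.5, 12.9 and 11.0 FPKM in normal skin. The libraries of 20 weeks were all above those of 6 weeks, and these were all above normal skin. The log2 fold change against normal skin was 0.96 ± 0.25 at 6 weeks (SE, adjusted p = 0.0135) and 1.41 ± 0.25 at 20 weeks (SE, adjusted p = 0.00316) by limma, while the step between the times, 0.45, was not called (adjusted p = 0.353).

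Abca12 encodes the transporter that fills lamellar granules with lipid. It had 58.2, 19.3 and 11.2 FPKM in treated skin, 122, 81.8 and 88.6 FPKM in fibrotic skin at 20 weeks, 55.1, 64.6 and 52.9 FPKM at 6 weeks, and 39.8, 53.9 and 45.0 FPKM in normal skin. Fibrotic skin at 20 weeks lay above all other libraries, those of 6 weeks overlapped normal skin, and treated replicates 2 and 3 were the lowest of the 12. Against normal skin its log2 fold change was 0.31 at 6 weeks (95% interval -0.68 to 1.31) and 1.05 at 20 weeks (0.05 to 2.04, adjusted p = 0.0941 by limma), so that neither was called. With 2 of the alternatives it was called at 20 weeks, namely the fit of normal and fibrotic 20-week libraries alone (adjusted p = 0.00624) and array weights (adjusted p = 0.00712), as it was without treated replicate 1 (adjusted p = 0.00373) or treated replicate 3 (adjusted p = 0.036).

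On the protein side, Tgm1 encodes the membrane-bound transglutaminase of the cornified envelope, and had 83.5, 29.5 and 32.1 FPKM in treated skin, 102, 98.6 and 85.3 FPKM in fibrotic skin at 20 weeks, 86.4, 98.6 and 63.9 FPKM at 6 weeks, and 33.7, 41.3 and 26.6 FPKM in normal skin. Every fibrotic library lay above every normal one, and treated replicate 1 stood with the fibrotic skin of 6 weeks while treated replicates 2 and 3 stood within normal skin. It rose by 1.27 ± 0.34 at 6 weeks (SE, adjusted p = 0.0162) and by 1.48 ± 0.34 at 20 weeks (SE, adjusted p = 0.00981) on the log2 scale by limma.

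Tgm3 encodes a soluble transglutaminase of the upper epidermis and the hair follicle. It had 45.5, 30.5 and 20.5 FPKM in treated skin, 89.1, 114 and 84.9 FPKM in fibrotic skin at 20 weeks, 104, 155 and 90.8 FPKM at 6 weeks, and 8.18, 18.1 and 9.81 FPKM in normal skin. The treated libraries lay between the fibrotic and the normal ones, with no overlap on either side. By limma it rose by 3.21 ± 0.33 at 6 weeks (SE, adjusted p = 0.000211), a fold of 9.26, and by 2.96 ± 0.33 at 20 weeks (SE, adjusted p = 0.000552), a fold of 7.78. It was the member that was also called in treated against normal skin, at 1.35 ± 0.33 on the log2 scale (SE, adjusted p = 0.0211), a call lost without normal replicate 1 (adjusted p = 0.0627), without normal replicate 3 (adjusted p = 0.0834) and in a fit of treated and normal libraries alone (adjusted p = 0.104). Over all 9 libraries of the model, Tgm3 was higher than in normal skin in 9 of 9, with a mean difference of 2.51 on the log2 scale and an exact 2-sided permutation p of 0.00909, the smallest that 9 against 3 libraries can give.

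Because Tgm3 is made in the hair follicle too, the inner root sheath markers (11 listed genes, Krt25, Krt27 and Krt71 among them) were set beside it. Their mean log2 level relative to normal skin was 3.14, 1.003 and 3.93 in the 3 treated libraries, 0.68 to 1.41 in fibrotic skin at 20 weeks, 2.40 to 3.03 at 6 weeks and -1.79, 1.58 and 0.21 in the normal libraries. Their summed level was 252 to 3032 FPKM in treated skin, 173 to 371 FPKM at 20 weeks, 725 to 1419 FPKM at 6 weeks and 17.7 to 393 FPKM in normal skin, and none was at 0. Hair shaft markers (16 listed genes) had a summed level of 166 to 2093 FPKM in treated skin, 62.4 to 114 FPKM at 20 weeks, 418 to 715 FPKM at 6 weeks and 19.5 to 140 FPKM in normal skin. Of these, 15 rose in treated against normal skin and 14 at 6 weeks, against 1 at 20 weeks, and 0 fell in any of the 3 comparisons. Of the inner root sheath genes, 4, 6 and 2 of 11 rose in treated, 6-week and 20-week skin. Of all tested genes 7.57%, 17.6% and 15.3% rose in the same comparisons with normal skin. The part of hair follicle cells in the Tgm3 values of any group was not tested.

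Casp14 encodes the cornification protease that takes part in the breakdown of filaggrin. It had 308, 142 and 47.9 FPKM in treated skin, 1171, 709 and 802 FPKM in fibrotic skin at 20 weeks, 869, 1297 and 1125 FPKM at 6 weeks, and 53.2, 99.0 and 59.0 FPKM in normal skin. The lowest fibrotic library stood far above the highest normal one, and the treated libraries ran from below normal skin to above it. Casp14 rose by 3.98 ± 0.54 at 6 weeks (SE, adjusted p = 0.000729), a fold of 15.8, and by 3.67 ± 0.54 at 20 weeks (SE, adjusted p = 0.0015), a fold of 12.7, by limma. Over all 9 libraries of the model the mean difference from normal skin was 2.85 on the log2 scale (exact 2-sided permutation p = 0.0364, and p = 0.109 without any 1 normal library). The other 8 members had exact permutation p-values between 0.0636 (Tgm1) and 0.8 (Abca12) in that pooled comparison, which was made for each of the 10 members without adjustment. Without treated replicate 3 these were 0.0364 for Tgm1, Pnpla1 and Alox12b, and without treated replicate 2 they were 0.0364 for Tgm1 and 0.0485 for Pnpla1.

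At 6 weeks, fibrotic against normal skin, 6 of the 10 members rose and 1 fell, where limma called 17.6% of all tested genes higher and 21.7% lower (39.3% in either direction). Their median log2 fold change was 0.99, against -0.05 over all tested genes. Without overlap between the groups were 6 members above and 1 below normal skin, as were 26.6% and 31.4% of all tested genes. The firmest calls were Casp14, Tgm3 and Alox12e, which were kept with any 1 library left out. The calls of Alox12b and Cers3 were near the threshold: with no filter on low values they had adjusted p-values of 0.0641 and 0.0566, and with 1 library left out of up to 0.134 and 0.126. Cers3 kept its call only without treated replicate 1, 2 or 3, and Alox12b only without normal replicate 2, replicate 3 of 6 weeks, or treated replicate 1 or 3. Members called numbered 3 without replicate 2 of 6 weeks, where Pnpla1 (adjusted p = 0.0507) and Tgm1 (0.0621) were lost too, and 4 without normal replicate 3, where Tgm1 had an adjusted p of 0.0561. Over all tested genes, leaving out 1 library gave 3502 to 6551 calls, with 3502 without replicate 2 of 6 weeks.

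At 20 weeks, fibrotic against normal skin, 7 of the 10 rose and 0 fell, where 15.3% of all tested genes were called higher and 18.2% lower (33.5% in all). The median was 1.37, against -0.04 over all tested genes, and 8 members lay above normal skin without overlap, as did 25.1% of all tested genes. The member count was 4 without normal replicate 1, which ended the calls of Alox12b, Aloxe3 and Cers3 (adjusted p = 0.0815, 0.0763 and 0.0575). Over all tested genes, calls ran from 3028 to 5812 with 1 library left out. Alox12b was also lost without normal replicate 3 or any 1 fibrotic replicate of 20 weeks (adjusted p = 0.0508 to 0.0904), Aloxe3 without normal replicate 3 or fibrotic replicate 2 or 3 (0.0538 to 0.0789), and Cers3 without fibrotic replicate 1 (0.0555). When each library was scaled to the pan-keratinocyte markers in place of its total, the median of all genes shifted to -0.44 and Aloxe3 missed the threshold (log2 fold change 0.54, adjusted p = 0.0708). The other 6 calls were kept under that scaling, with log2 fold changes of 0.93 (Cers3) to 3.26 (Casp14). The comparisons at 6 and 20 weeks share the normal libraries.

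Between the times, fibrotic skin at 20 weeks against 6 weeks, 0 of the 10 members passed, where limma called 5 of all tested genes (0.0363%). An unadjusted p under 0.05 was reached by 1 member, and by 2737 of all 13761 tested genes. The member was Alox12e, whose log2 value was higher at 20 weeks by 2.17 (95% interval 1.20 to 3.15, adjusted p = 0.0783). Its groups did not overlap, and the same held for Abca12 and Pnpla1, 3 members in all, as for 17.9% of tested genes in that direction. Alox12e was called in the fit of the 6 fibrotic libraries alone (adjusted p = 0.0407), with array weights (adjusted p = 0.00516), without replicate 3 of 6 weeks (log2 fold change 2.67, adjusted p = 0.0269) and without treated replicate 1 (adjusted p = 0.0232). Casp14 (-0.31) and Tgm3 (-0.25) had intervals that included 0.

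**Figure D3:**
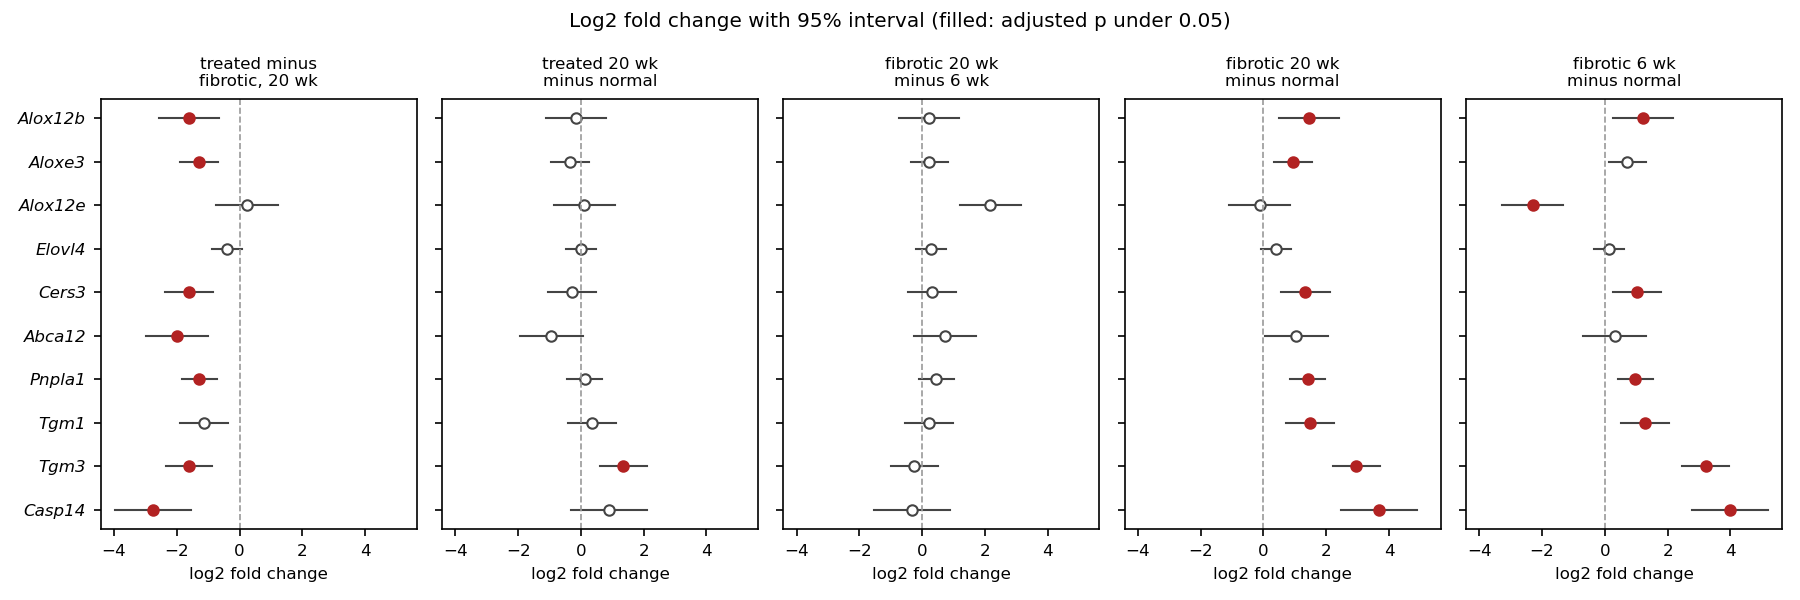
Log2 fold change of each member with its 95% interval from limma in 5 comparisons (filled points have an adjusted p under 0.05). Points lie left of 0 for 9 of the 10 members in treated against fibrotic skin, and right of 0 for 9 of 10 in fibrotic skin at 20 weeks against normal skin, with Alox12e the exception in each.

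In treated against fibrotic skin at 20 weeks, 7 of the 10 members fell and 0 rose, where 10.9% of all tested genes were called lower and 4.45% higher (15.3% in all). Casp14 fell by 2.76 ± 0.54 on the log2 scale (SE, adjusted p = 0.0179), to a fold of 0.148. Abca12 fell by 1.99 ± 0.45 (SE, adjusted p = 0.0224), to a fold of 0.252. The other 5 that fell were Alox12b, Cers3 and Tgm3, each with -1.61, and Aloxe3 and Pnpla1, each with -1.29, at adjusted p-values of 0.0177 to 0.0346. Tgm1 lay just outside the threshold with -1.12 (95% interval -1.89 to -0.36, adjusted p = 0.0522), although its treated libraries were all below the fibrotic ones, and it passed with a filter at a mean of 5 FPKM (adjusted p = 0.0453), while Alox12b missed with no filter (0.0539). Elovl4 (-0.41, interval -0.89 to 0.07) and Alox12e (0.24, interval -0.73 to 1.21) were not called. The median over the 10 members was -1.45, against -0.00 over all tested genes, and 8 members lay below fibrotic skin without overlap, as did 19.2% of all tested genes.

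These calls rest on the spread pooled over the 4 groups. In a limma fit of the 6 treated and fibrotic libraries alone, 3 genes in all and 0 members were called. An unadjusted p under 0.05 was reached by 8 members, and by 3460 of all 13761 tested genes. The adjusted p of the 7 members was 0.128 to 0.133. Leaving out 1 library of the pair kept the sign of these 7 but not the calls. Without fibrotic replicate 3, 0 members were called. An unadjusted p under 0.05 was then reached by 8 members, and by 3857 of all 13761 tested genes. Members called numbered 1 each without fibrotic replicate 1, treated replicate 2 or treated replicate 3. They numbered 4 without fibrotic replicate 2, and 8 without treated replicate 1. With 3 libraries on each side, exact permutation stops at p = 0.1. Scaled to pan-keratinocyte markers, which moved the median of all genes to 0.40, the same 7 members were called, with log2 fold changes of -0.88 (Pnpla1 and Aloxe3) to -2.35 (Casp14).

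Against normal skin, treated skin differed in 1 member, Tgm3, where 7.57% of all tested genes were called higher and 13.2% lower. The member median was 0.05, against -0.06 over all tested genes. Intervals were wide: the log2 fold change was 0.91 for Casp14 (95% interval -0.30 to 2.12), -0.94 for Abca12 (-1.93 to 0.06) and -0.16 for Alox12b (-1.12 to 0.79), so that a return to the normal level was not shown for these genes. Without treated replicate 3 Casp14 was called (1.61, adjusted p = 0.0239), and without treated replicate 1 Abca12 (-1.57, adjusted p = 0.00491) and Cers3 (-0.75, adjusted p = 0.0336). Both comparisons share the treated libraries.

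The 3 treated libraries differed among themselves. Treated replicate 1 was the highest of the 3 for 9 of the 10 members, Elovl4 being the exception, and lay above all normal libraries for 8 members. Treated replicate 2 lay above all normal libraries for 2 members and below all of them for 3, and treated replicate 3 lay above them for 1 and below them for 7. The highest over the lowest treated library came to 6.42 for Casp14, 5.18 for Abca12, 3.63 for Alox12b and 3.36 for Cers3, against 1.43 for Elovl4. All the same, treated replicate 1 was below every fibrotic library of 20 weeks for 9 members, replicate 2 for 8 and replicate 3 for all 10. The matching shares of all tested genes were not taken for single libraries. These counts therefore describe the members and do not set them apart from other genes. Adipocyte markers (10 genes) summed to 1188, 3233 and 6116 FPKM in treated replicates 1, 2 and 3. They summed to 1344 to 2152 FPKM in fibrotic skin at 20 weeks and 1631 to 2929 FPKM in normal skin. Skeletal muscle markers (12 genes) summed to 101, 1544 and 2739 FPKM in the same treated replicates. They summed to 715 to 3146 FPKM at 20 weeks and 152 to 6359 FPKM in normal skin. The part of these tissues in the members' values was not tested.

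The 10 genes listed as markers of activated, wound keratinocytes ran alongside (Krt6a, Krt6b, Krt16, Krt17, Stfa1, Stfa2, Stfa3, S100a8, S100a9 and Serpinb3a). Which cells of whole skin made their transcripts was not tested. Their mean log2 level relative to normal skin was 6.20, 3.58 and 1.21 in treated replicates 1, 2 and 3, 5.73 to 6.79 in fibrotic skin at 20 weeks and 6.44 to 7.43 at 6 weeks. Their summed level was 1411 to 15014 FPKM in treated skin, 13862 to 21554 FPKM at 20 weeks, 22712 to 35862 FPKM at 6 weeks and 451 to 641 FPKM in normal skin, and none was at 0. The pan-keratinocyte markers were also highest in treated replicate 1, with 0.42, -0.15 and -0.26 in replicates 1, 2 and 3, against 0.23 to 0.57 in fibrotic skin at 20 weeks. Leukocyte markers (11 genes in the table) summed to 154 to 219 FPKM in treated skin and 307 to 331 FPKM in fibrotic skin at 20 weeks. They summed to 258 to 635 FPKM at 6 weeks and 121 to 204 FPKM in normal skin. The share of these lists in the members' values was not tested. The pan-keratinocyte scaling given above cannot measure it, since some of the scaling genes were themselves called in these comparisons.

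**Figure D4:**
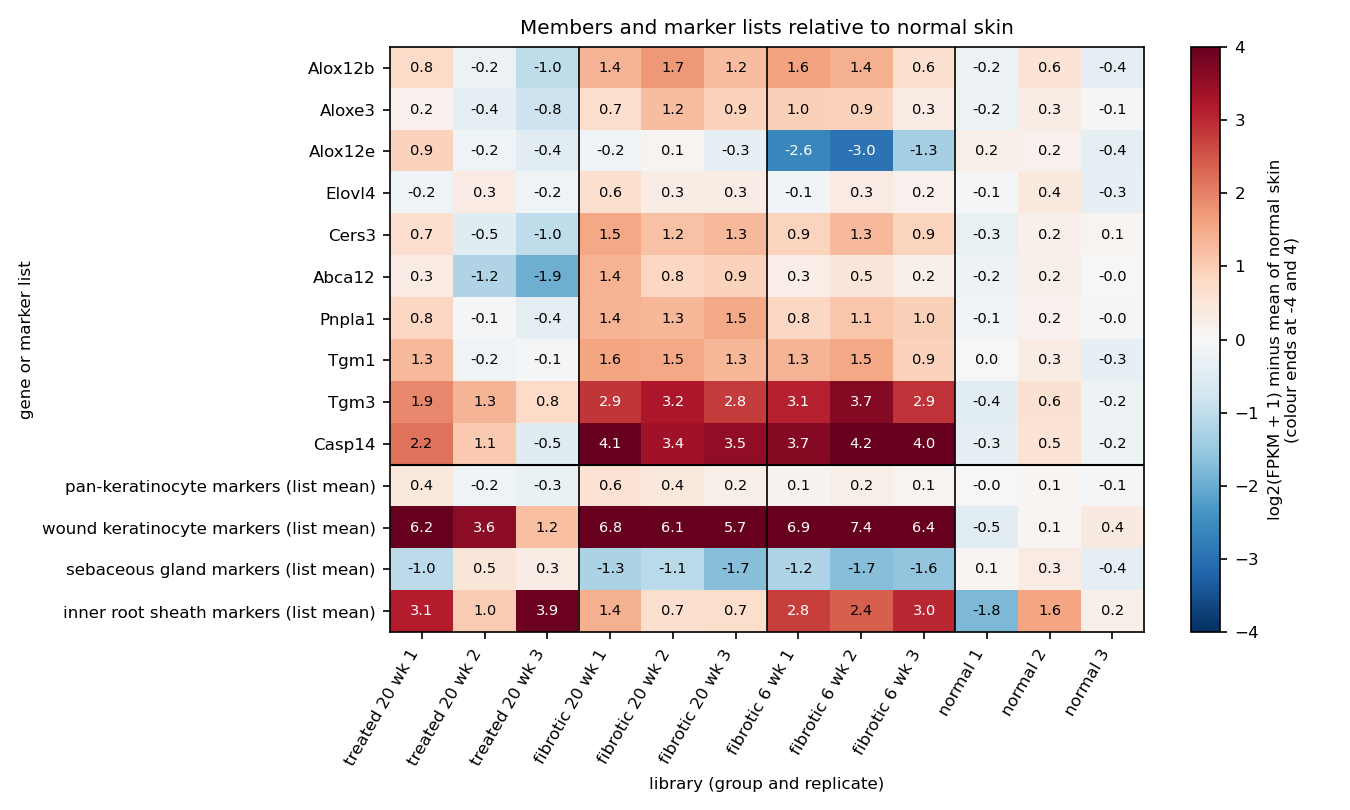
Log2(FPKM + 1) of each member, and the mean of 4 marker lists, in each of the 12 libraries relative to the mean of normal skin (red higher, blue lower, colours end at -4 and 4). Casp14, Tgm3 and the wound keratinocyte markers are red in all fibrotic libraries, Alox12e is blue at 6 weeks, and the 3 treated columns differ from one another.

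The other genes of the same pathways were read from lists that leave out the members. Of 40 further genes of barrier lipid synthesis and processing, 24 fell and 1 rose in treated against fibrotic skin (median -0.85), 2 rose and 6 fell in treated against normal skin (-0.06), 20 rose and 3 fell in fibrotic skin at 20 weeks against normal skin (0.65), and 14 rose and 5 fell at 6 weeks (0.33). The medians over all tested genes lay between -0.06 and 0.02. Of all tested genes 4.45% rose and 10.9% fell, 7.57% and 13.2%, 15.3% and 18.2%, and 17.6% and 21.7%, in the same order. The counts in treated against normal skin lay near those shares, and the genes named from that comparison are described singly. In the limma fit of the 6 treated and fibrotic libraries alone 0 of the 40 were called, with 30 at an unadjusted p under 0.05. Without fibrotic replicate 3 there were likewise 0, with 31. Of all 13761 tested genes, 3460 and 3857 had an unadjusted p under 0.05, in the same order. With pan-keratinocyte scaling 16 were called.

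Degs2, the desaturase and hydroxylase that makes phytoceramides, had 12.1 ± 13.7 FPKM in treated skin, 49.2 ± 18.3 FPKM in fibrotic skin at 20 weeks, 48.6 ± 11.3 FPKM at 6 weeks and 1.73 ± 0.239 FPKM in normal skin (SD, n = 3 each). It rose by 4.16 ± 0.58 on the log2 scale at 6 weeks (SE, adjusted p = 0.000799 by limma). Degs1, the ceramide desaturase, had 90.2 ± 27.6, 218 ± 19.6, 181 ± 17.0 and 68.3 ± 5.38 FPKM in treated, fibrotic 20-week, fibrotic 6-week and normal skin (SD, n = 3 each), and fell by 1.31 in treated against fibrotic skin (adjusted p = 0.0151 by limma). The sphingomyelinase gene Smpd1 rose by 1.59 at 20 weeks against normal skin. Sptlc1, a subunit of the first enzyme of sphingolipid synthesis, and Acer1, an epidermal ceramidase, fell by 1.13 and 0.999 in treated against fibrotic skin. Against normal skin, treated skin had lower Sptlc3 (-1.32) and Sgms1 (-0.86) and higher Ap1s1 (0.54), which also rose at 6 weeks (0.70) and 20 weeks (0.83).

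The single riser of that list in treated against fibrotic skin was Fa2h, the fatty acid 2-hydroxylase, which is named here after its values were seen. It had 17.1, 169 and 137 FPKM in treated skin, against 8.38, 18.8 and 2.59 FPKM in fibrotic skin at 20 weeks. Normal skin had 76.3, 139 and 41.9 FPKM. Treated replicate 1 overlapped fibrotic skin, treated replicate 2 lay above all normal libraries and treated replicate 3 lay within them. Fa2h differed by 3.105 ± 0.89 on the log2 scale (SE, adjusted p = 0.0428 by limma). The call rests on the setting: 0 of the 40 genes were called higher with no filter on low values, with the replicate block, in the fit of the 6 libraries alone, or with any 1 library left out other than treated replicate 1. Fa2h is expressed in sebaceous glands as well, and the sebaceous marker level was -1.05, 0.48 and 0.31 in treated replicates 1, 2 and 3, but its part in the Fa2h values was not tested.

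Of 27 cornified envelope genes, 13 fell and 0 rose in treated against fibrotic skin (median -1.57), 17 rose and 2 fell in fibrotic skin at 20 weeks against normal skin (1.76), and 17 rose and 3 fell at 6 weeks (1.46). Of all tested genes 4.45% rose and 10.9% fell, 15.3% and 18.2%, and 17.6% and 21.7%, in the same order. Among those that fell in treated skin were the desmosome and plakin genes Ppl (-1.23), Dsg1a (-1.42) and Dsc1 (-2.45). The rising genes included Sprr1b (8.97) and Sprr2h (6.85) at 6 weeks, small proline-rich envelope precursors, and Krt2 (6.88), Lce1f (4.18) and Cnfn (2.73) at 20 weeks. Krt80, a keratin of differentiating epithelium, fell at 6 weeks (-1.78). In treated against normal skin 5 rose and 4 fell, where 7.57% and 13.2% of all tested genes did. Krt2 was higher (4.59), and the filaggrin relative Flg2 (-1.88) and Krt80 (-1.04) were lower. Envelope genes called in treated against fibrotic skin numbered 0 in the limma fit of those 6 libraries alone, with 19 at an unadjusted p under 0.05. They numbered 0 without fibrotic replicate 3, with 20. Of all 13761 tested genes, 3460 and 3857 had an unadjusted p under 0.05, in the same order.

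Of 21 genes listed for filaggrin or corneodesmosome processing, 9 fell and 0 rose in treated against fibrotic skin, 12 rose and 1 fell at 20 weeks against normal skin, and 11 rose and 2 fell at 6 weeks. Of all tested genes 4.45% rose and 10.9% fell, 15.3% and 18.2%, and 17.6% and 21.7%, in the same order. Klk14, a kallikrein protease of desquamation, led with 6.16 ± 2.67 FPKM in treated skin, 62.6 ± 16.6 FPKM in fibrotic skin at 20 weeks, 97.6 ± 54.4 FPKM at 6 weeks and 1.12 ± 0.168 FPKM in normal skin (SD, n = 3 each). Its log2 fold change was -3.19 in treated against fibrotic skin, and against normal skin it was 4.88 for fibrotic skin at 20 weeks and 5.32 at 6 weeks. Klk8 also rose (2.93 at 20 weeks and 3.05 at 6 weeks), as did Ctsd at 20 weeks (1.29), and Klk5 fell in treated against fibrotic skin (-1.64). The protease inhibitor gene Serpinb7 fell at 6 weeks (-1.46) and was lower in treated than in fibrotic (-1.01) and normal skin (-1.82). In treated against normal skin 4 rose and 1 fell, where 7.57% and 13.2% of all tested genes did. Furin (0.89) and Padi1 (2.03) were higher.

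Of 26 genes of transcription factors of barrier formation, 6 fell and 0 rose in treated against fibrotic skin, 11 rose and 5 fell at 20 weeks against normal skin, 7 rose and 6 fell at 6 weeks, and 3 rose and 5 fell in treated against normal skin. Over all tested genes 4.45% rose and 10.9% fell, 15.3% and 18.2%, 17.6% and 21.7%, and 7.57% and 13.2% in the same comparisons. The counts at 6 weeks and in treated against normal skin lay near those shares, and the genes below are described singly. Ppara, the nuclear receptor of fatty acids, fell at 6 weeks (-2.32) and 20 weeks (-2.20), while its relative Ppard rose at 20 weeks (1.28). Trp63, the basal keratinocyte factor, fell at 6 weeks (-0.82) and was lower in treated than in normal skin (-0.55), as was Arnt (-0.45). Rora (-1.82), Zfp750 (-0.88) and Cebpa (-0.53) fell in treated against fibrotic skin.

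Of 9 other lipoxygenase and transglutaminase genes, 1 rose and 2 fell in treated against fibrotic skin, 1 rose and 0 fell at 20 weeks against normal skin, and 1 rose and 2 fell at 6 weeks. Of all tested genes 4.45% rose and 10.9% fell, 15.3% and 18.2%, and 17.6% and 21.7%, in the same order. The counts against normal skin lay near those shares, and the genes below are described singly. The epidermal transglutaminase gene Tgm5 rose at 20 weeks (1.27) and fell in treated against fibrotic skin (-1.08), where Alox12, the platelet-type lipoxygenase gene, fell too (-0.97). The tissue transglutaminase gene Tgm2 fell at 6 weeks (-0.97) and rose in treated against fibrotic skin (0.998). Alox5, the leukotriene lipoxygenase gene of leukocytes, fell at 6 weeks (-1.19), and Tgm6 rose (1.61).

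**Figure D5:**
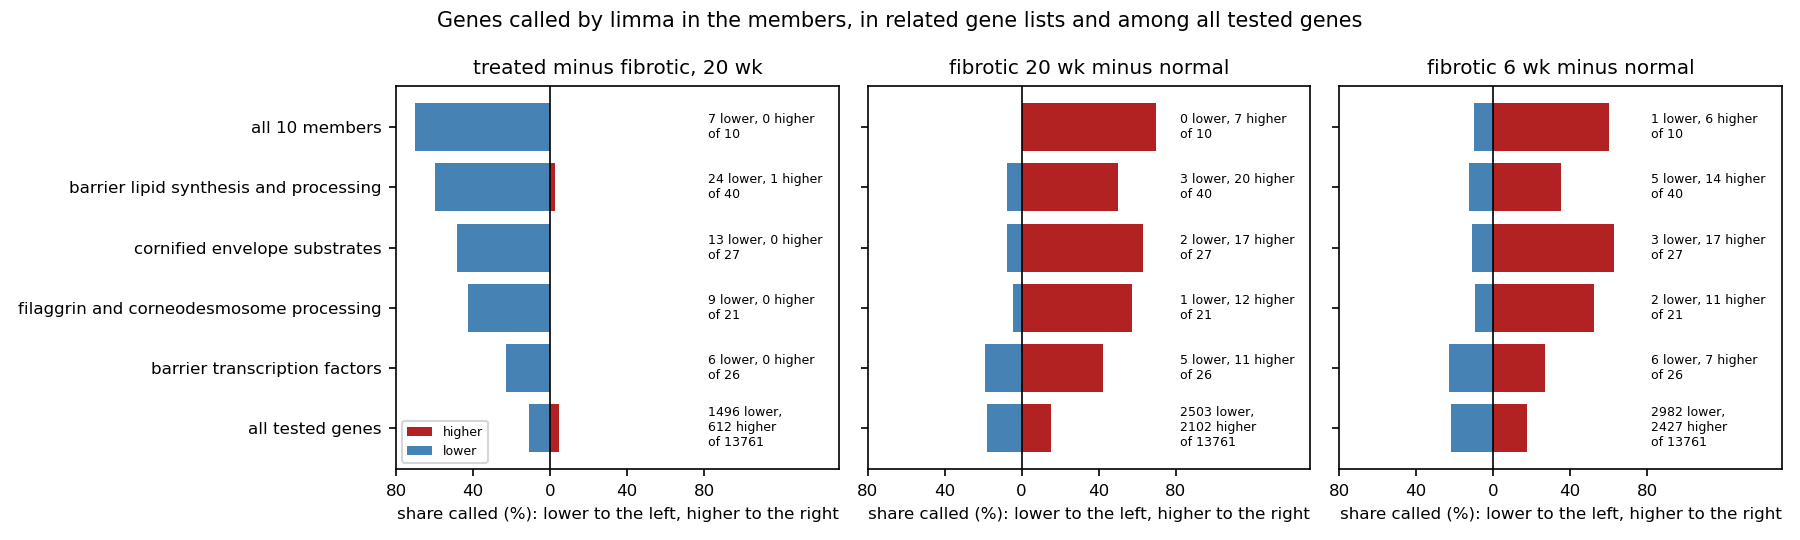
Share of genes called lower (blue, left) and higher (red, right) by limma in the 10 members, 4 related lists and all 13761 tested genes, in 3 comparisons, with the counts beside the bars. In treated against fibrotic skin the bars of the members and of the 4 lists run to the left, with 1 gene of the 40 barrier lipid genes to the right.

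For each member, the tested genes nearest to it in pattern were found by the root mean square difference of log2(FPKM + 1), with each gene centred on its own mean over the 12 libraries, where 0 means the same course. Because the libraries share groups and depth, nearness describes this set of 12 and nothing further. Among the neighbours of Pnpla1 were Gltpd1 (0.104) and 6430548M08Rik (0.111). Cers3 was nearest to Ugcg, the glucosylceramide synthase gene, at 0.139, with Wfdc5 and Tmem154 next.

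Ugcg had 29.4 ± 18.4, 67.7 ± 11.4, 63.3 ± 14.2 and 31.2 ± 4.48 FPKM in treated, fibrotic 20-week, fibrotic 6-week and normal skin (SD, n = 3 each). Abca12 was nearest to the epidermal lipase gene Lipn (0.172), with Aadacl2 and Fam57a next, and Lipn had 11.0 ± 9.73, 36.3 ± 3.67, 24.3 ± 5.41 and 16.8 ± 6.22 FPKM in the same order of groups. Alox12b was nearest to the envelope protein involucrin, Ivl (0.226), with Nxph4 and Kctd4 next. Ivl had 105 ± 72.2, 307 ± 24.5, 272 ± 57.0 and 124 ± 31.7 FPKM in the same order. Tgm1 was nearest to Epn3 (0.164), Mxd1 and Sult2b1, the cholesterol sulfotransferase gene, and Aloxe3 to Polr3g (0.201), with Mapre2 also near.

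Elovl4, whose own SD over the 12 libraries was 0.30, was nearest to Pafah2 (0.156), Acad9 and Cds1. The difference is not divided by a gene's SD, so it tends to be larger for members that moved more. Casp14, with an SD of 1.90, was nearest to Il1f8, Klk9 and Glrx (0.320 to 0.356), and Tgm3, with an SD of 1.41, to Serpina9, 9930013L23Rik and Tcf23 (0.311 to 0.341). Alox12e, with an SD of 1.16, had the most distant first neighbour by this undivided measure, Fcgbp at 0.348. The next genes, Fam115c and Nkg7, were at 0.517 and 0.525. Fcgbp had 163 ± 101 FPKM in treated skin, 82.8 ± 19.0 FPKM in fibrotic skin at 20 weeks, 35.4 ± 31.98 FPKM at 6 weeks and 126 ± 9.02 FPKM in normal skin (SD, n = 3 each).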

How the data were processed

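Skin RNA of integrity above 8.0 was made into stranded, poly-A selected libraries and sequenced in paired-end runs of 101 cycles, per the labels' protocols. The authors deposited 1 table of FPKM values with 12 columns, 1 per library. Tools named in the submitters' processing notes are Cufflinks 2.2.1, TopHat2 2.0.13, Bowtie2 2.2.3, SAMtools 1.0, FastQC 0.11.2, R 3.1.1 and cutadapt 1.7.1, and the build is mm10. What each did, which annotation was used and whether libraries were scaled to one another is not given in the sources used here. Read numbers are not part of FPKM, so no counting error or detection limit is stated, and the precision of a value is known only from the 3 libraries of its group. No pair of libraries was identical. Replicate numbers come from the labels, which do not say what they stand for. Deviations from the group means correlated over 0.1 in every pair of the same number only for fibrotic skin at 6 weeks and normal skin (0.108 to 0.227), so there the fit with the replicate number as a block is given where it changes a call.

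From these values, log2(FPKM + 1) of the 13761 genes that reached 1 FPKM in 3 or more libraries was fitted in limma 3.58.1 (R 4.3.3), with a mean for each of the 4 groups, all 12 libraries in 1 fit, an intensity trend and no replicate block. Tests were 2-sided, adjusted by Benjamini-Hochberg over all tested genes within each of 5 comparisons, and called at an adjusted p under 0.05. The pseudocount of 1 understates the change of low genes. Exact permutation tests used SciPy 1.17.1 (Python 3.11.15). Fit and scripts were tested on simulated data. The text names all members, from each other list up to 3 called genes with the smallest adjusted p per comparison, and the 3 nearest genes of each member; other genes are said to be chosen after their values were seen. A few genes that this rule names are not reported here. Members and lists were chosen with earlier results of these data known, so no count over them is independent evidence. A marker level is the mean log2 value of a list minus its mean in normal skin.

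Alternatives were no filter or a filter at a mean of 5 FPKM, a pseudocount of 0.1, median-of-ratios scaling, scaling to 19 pan-keratinocyte markers, a fit of the 6 libraries compared, array weights, a replicate block, and leaving out each library.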

Additional observations from a re-analysis of the deposited data

How the results depend on the processing

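The number of reads behind a value is unknown, treated libraries spread more than the rest, and 3 libraries a group leave calls near the threshold to single libraries. Replicate numbers did not pair the libraries over the 4 groups. Over 18 pairs with the same number, deviations from the group means correlated at -0.35 to 0.29, with 5 over 0.1, and 2 of 12 libraries correlated best with one of their own number. Between 6-week and normal skin every same-number pair was over 0.1. Even so, normal replicate 1 correlated more with replicate 3 of 6 weeks (0.191) than with replicate 1 (0.159), so pairing was not shown there. With the replicate number as a block, genes called in treated against fibrotic skin numbered 1365 (2108 without), members called stayed at 7, and of the member calls at 6 weeks against normal skin Cers3 was lost (adjusted p = 0.0532) and Aloxe3 gained (adjusted p = 0.0443). A pseudocount of 0.1 and no filter moved no total count of calls by more than 1.5 times, but without the filter 391 genes, against 612, were called higher in treated against fibrotic skin, and 2 envelope genes, against 4, lower in treated against normal skin. A filter at a mean of 5 FPKM gave 33 genes, against 5, between fibrotic skin at 20 and 6 weeks.

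Scaling to the pan-keratinocyte markers moved the median gene to -0.44 (log2) at 20 weeks against normal skin and to 0.40 in treated against fibrotic skin, and left 2891 genes called at 6 weeks against normal skin (5409 otherwise), 548 in treated against normal skin (2855), 18 between 20 and 6 weeks (5) and 1154 in treated against fibrotic skin (2108), with 16 barrier lipid genes (25). Calls then split into 784 higher and 4125 lower at 20 weeks against normal skin (2102 and 2503 otherwise), 830 and 324 in treated against fibrotic skin (612 and 1496), and 334 and 214 in treated against normal skin (1042 and 1813). Signs turned for Elovl4 at 6 weeks (-0.024) and 20 weeks (-0.0023) against normal skin and over all 9 model libraries (-0.012), for Abca12 over the 9 (-0.045), and for Alox12b (-0.036), Aloxe3 (-0.023) and Tgm1 (-0.042) between 20 and 6 weeks. Tgm1 over the 9 passed under this scaling (0.85, exact permutation p = 0.0455). Scaling by the median of ratios turned Elovl4 in treated against normal skin to 0.063.

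Fits of the 6 libraries compared called, in treated against fibrotic skin, 3 genes, 0 members, 0 barrier lipid and 0 cornified envelope genes. In treated against normal skin they called 138 genes, 0 members, 0 barrier lipid genes and 1 envelope gene. Between 20 and 6 weeks they called 478 genes, 1 member, 5 barrier lipid and 5 envelope genes. Array weights, whose estimation stopped before its tolerance and gave treated replicate 2 a weight of 12.8, called 7839 genes and 22 envelope genes in treated against fibrotic skin. They called 5638 genes, 4 members, 25 barrier lipid and 17 envelope genes in treated against normal skin, and 2761 genes, 1 member, 8 barrier lipid and 7 envelope genes between 20 and 6 weeks. With them signs turned in treated against normal skin for Alox12e (-0.26), Elovl4 (0.24), Pnpla1 (-0.074) and Tgm1 (-0.22), and in treated against fibrotic skin for Alox12e (-0.13).

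With each library left out in turn, treated against fibrotic skin ran from 3 to 5216 genes, 0 to 8 members, 0 to 33 barrier lipid and 0 to 20 envelope genes. Treated against normal skin ran from 904 to 3098 genes, 0 to 3 members, 4 to 17 barrier lipid and 3 to 11 envelope genes. Between 20 and 6 weeks the ranges were 4 to 550 genes, 0 to 1 member, 0 to 3 barrier lipid and 0 to 4 envelope genes. At 20 weeks against normal skin they were 3028 to 5812 genes, 4 to 8 members, 11 to 29 barrier lipid and 15 to 22 envelope genes. At 6 weeks they were 3502 to 6551 genes, 3 to 8 members, 11 to 22 barrier lipid and 13 to 22 envelope genes. Signs could turn with 1 library for members that were not called: in treated against normal skin Alox12b (-0.64 to 0.27), Alox12e (-0.30 to 0.38), Cers3 (-0.75 to 0.10), Elovl4 (-0.18 to 0.19), Pnpla1 (-0.23 to 0.38) and Tgm1 (-0.11 to 0.62), in treated against fibrotic skin Alox12e (-0.17 to 0.51), between 20 and 6 weeks Alox12b (-0.073 to 0.41), and at 6 weeks against normal skin Elovl4 (-0.041 to 0.32). Over the 9 model libraries the ranges were -0.015 to 0.40 for Abca12, 0.65 to 1.11 for Alox12b, 2.68 to 3.27 for Casp14, 0.75 to 0.99 for Pnpla1 and 0.88 to 1.19 for Tgm1. The causes of these changes were not tested.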
